A study of Mus musculus with 12 samples.

Results

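In sorted mouse CD4 T cells 7 genes were followed: 6 receptors of the tumour necrosis factor (TNF) receptor superfamily, Tnfrsf4, Tnfrsf18, Tnfrsf9, Tnfrsf1b, Cd27 and Tnfrsf25, and 1 TNF family ligand, Cd40lg. They were chosen by gene symbol, with earlier results of these data known, and each matched 1 Ensembl identifier among the 21839 genes of the RNA-seq count table. All 7 were among the 11766 genes with enough counts to be tested. The 12 libraries came from C57BL/6 mice and formed 4 groups of 3. TG High and TG Low were CD25 High and CD25 Low cells of mice with the genotype Atg5 flox/flox CD11c Cre +/-. WT High and WT Low were the same gates from littermates with the genotype Atg5 flox/flox CD11c Cre -/-, so both genotypes carry the floxed Atg5 alleles and differ in Cre. The CD11c promoter drives Cre mainly in dendritic cells, where it removes the autophagy gene Atg5, and the sorted T cells were not its target. Cells were taken from spleen and from inguinal, cervical and brachial lymph nodes, enriched for CD4 and gated on CD25 and on a further surface marker, and the labels call both gates regulatory T cells (Tregs). Age is not given. Whether replicates are separate animals is not stated in the labels, so every p-value measures only the spread between these samples. The comparisons ask how the RNA of the 2 CD25 gates differs, and how it differs between mice with and without CD11c Cre. Loss of Atg5 or of autophagy in dendritic cells was not measured in these T cell libraries.

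Receptors of the TNF superfamily are membrane proteins that bind trimeric ligands, gather TRAF adaptor proteins at their tails and switch on NF-kB and kinase pathways that favour survival and division. Tregs carry several of them at high levels, and ligands for OX40 (Tnfrsf4), GITR (Tnfrsf18), TNFR2 (Tnfrsf1b) and DR3 (Tnfrsf25) are known to act on Treg growth and function. CD40 ligand (Cd40lg) works the other way round: helper T cells display it to B cells and dendritic cells, which carry its receptor CD40, and Foxp3-expressing cells are known to show little of it.

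Library totals ran from 18161830 to 23942479 counts, with TG High replicate 2 apart at 6767828. All 9 genes of a T cell and Treg identity list were present in every library. Foxp3, the defining transcription factor of Tregs, ran from 983 to 1663 CPM (counts scaled for library size, with totals adjusted by the trimmed mean of M values, TMM). Il2ra, which encodes CD25, averaged 1183 CPM in TG High, 593 CPM in TG Low, 1189.9 CPM in WT High and 589 CPM in WT Low. The replicate number was a strong source of spread. Libraries of different groups that carried the same number deviated from their group means together, with correlations over all tested genes of 0.34 to 0.83 in 18 pairs, against -0.688 to 0.197 in 36 pairs with different numbers. Each CD25 and genotype comparison was therefore fitted both with a block for the number and without one, and the calls differ between the fits.

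Of the 7 genes, 5 lie on chromosome 4, where the annotation (GENCODE vM21, GRCm38) places 7 genes named Tnfrsf in all. Tnfrsf4 and Tnfrsf18 are neighbours there, 9551 bases apart and on the same strand. Because these 2 genes and Tnfrsf9 moved together between the gates, the exon-free part of a RefSeq promoter window of each is shown, from the table for GRCm38.p6. For Tnfrsf9 this is the second window, and the first, which held no match to a searched motif, is left out. Each window holds 250 bases before and 50 bases after a transcript start, and 6 of the 7 genes had at least 1 window, 8 windows in all. Capitals mark a match to a searched motif, and all sequences read 5′ to 3′ on the gene's strand. Tnfrsf4 is at chr4:156013611-156013694, Tnfrsf18 at chr4:156026072-156026163 and the second window of Tnfrsf9 at chr4:150927749-150927917, all on the plus strand.
Tnfrsf4: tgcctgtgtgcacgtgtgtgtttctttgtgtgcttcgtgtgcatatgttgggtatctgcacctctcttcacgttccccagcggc
Tnfrsf18: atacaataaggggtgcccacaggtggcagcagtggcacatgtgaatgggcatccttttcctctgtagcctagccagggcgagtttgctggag
Tnfrsf9: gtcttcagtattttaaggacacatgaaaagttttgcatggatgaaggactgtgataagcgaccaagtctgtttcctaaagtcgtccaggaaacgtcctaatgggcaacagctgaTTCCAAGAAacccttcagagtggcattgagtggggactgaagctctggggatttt

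In the 8 windows, 4 motifs were searched on both strands: TTCNNNGAA, the palindrome bound by STAT factors, TGANTCA, the AP-1 element, TGTTTAC, a forkhead element, and the NF-kB consensus. Matches were found at a STAT motif in Tnfrsf18 (chr4:156026215-156026239, plus strand), at NF-kB and AP-1 motifs in the second Tnfrsf9 window (chr4:150927948-150927974 and chr4:150927976-150927998, plus strand), and at STAT motifs in Tnfrsf1b (chr4:145247035-145247059, minus strand) and in the second Tnfrsf25 window (chr4:152116319-152116343, plus strand). They are given with 8 bases on either side. The matches in Tnfrsf18, Tnfrsf9 and Tnfrsf25 lie within the annotated spans of these genes, and that of Tnfrsf1b lies before its gene. The Tnfrsf18 match and the NF-kB and AP-1 matches of Tnfrsf9 lie outside the exon-free stretches shown above.
Tnfrsf18 STAT: ctctacacTTCACAGAAggccttta
Tnfrsf9 NF-kB: gagcagctGGGGATTTCCCaggaggcc
Tnfrsf9 AP-1: tgctcagtTGAGTCAcaggtcct
Tnfrsf1b STAT: cgcattcaTTCCCGGAAgagatgct
Tnfrsf25 STAT: gcctccacTTCTCAGAAggcatggc
The NF-kB stretch holds 2 overlapping matches, and the STAT match of Tnfrsf9 stands in its longer sequence. In all, 4 of the 8 windows held the STAT motif, against 8.3% of the 32851 windows in the table. They belong to Tnfrsf18, Tnfrsf9, Tnfrsf1b and Tnfrsf25, and the last 2 were not called between the gates in the blocked fit of all libraries. The Tnfrsf4 window held no match to any searched motif, and Cd40lg had no window. The NF-kB consensus stood in 1 of 8 (4.51% of all windows), the AP-1 element in 1 of 8 (7.81%) and the forkhead element in 0 of 8 (3.65%). These are matches of letters, and binding was not measured.

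Per kilobase of merged exon, the 6 receptors had the highest mean levels of their superfamily in these cells. Mean levels over the 12 libraries were 278 CPM per kb for Tnfrsf18, 271 for Tnfrsf4, 214 for Cd27, 79.8 for Tnfrsf1b, 77.4 for Tnfrsf25 and 56.1 for Tnfrsf9. The first 3 were not separated, since Tnfrsf18 exceeded Tnfrsf4 in 8 of 12 libraries and Tnfrsf4 exceeded Cd27 in 9 of 12. Cd27 exceeded Tnfrsf1b in all 12. The lower 3 also crossed: Tnfrsf1b was above Tnfrsf25 in 5 of 12 libraries and Tnfrsf25 above Tnfrsf9 in 8 of 12. Of the 22 other receptors of the superfamily, Fas, the death receptor, was highest in every library, with a mean of 48.6 CPM per kb. Tnfrsf4, Tnfrsf18, Tnfrsf1b, Cd27 and Tnfrsf25 exceeded Fas in 12 of 12 libraries and Tnfrsf9 in 5 of 12. Among the ligands, Cd40lg averaged 30.6 CPM per kb, below Lta (93.4) and Ltb (929.7), which encode the lymphotoxins, and above Tnf (23.3).

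**Figure D1:**
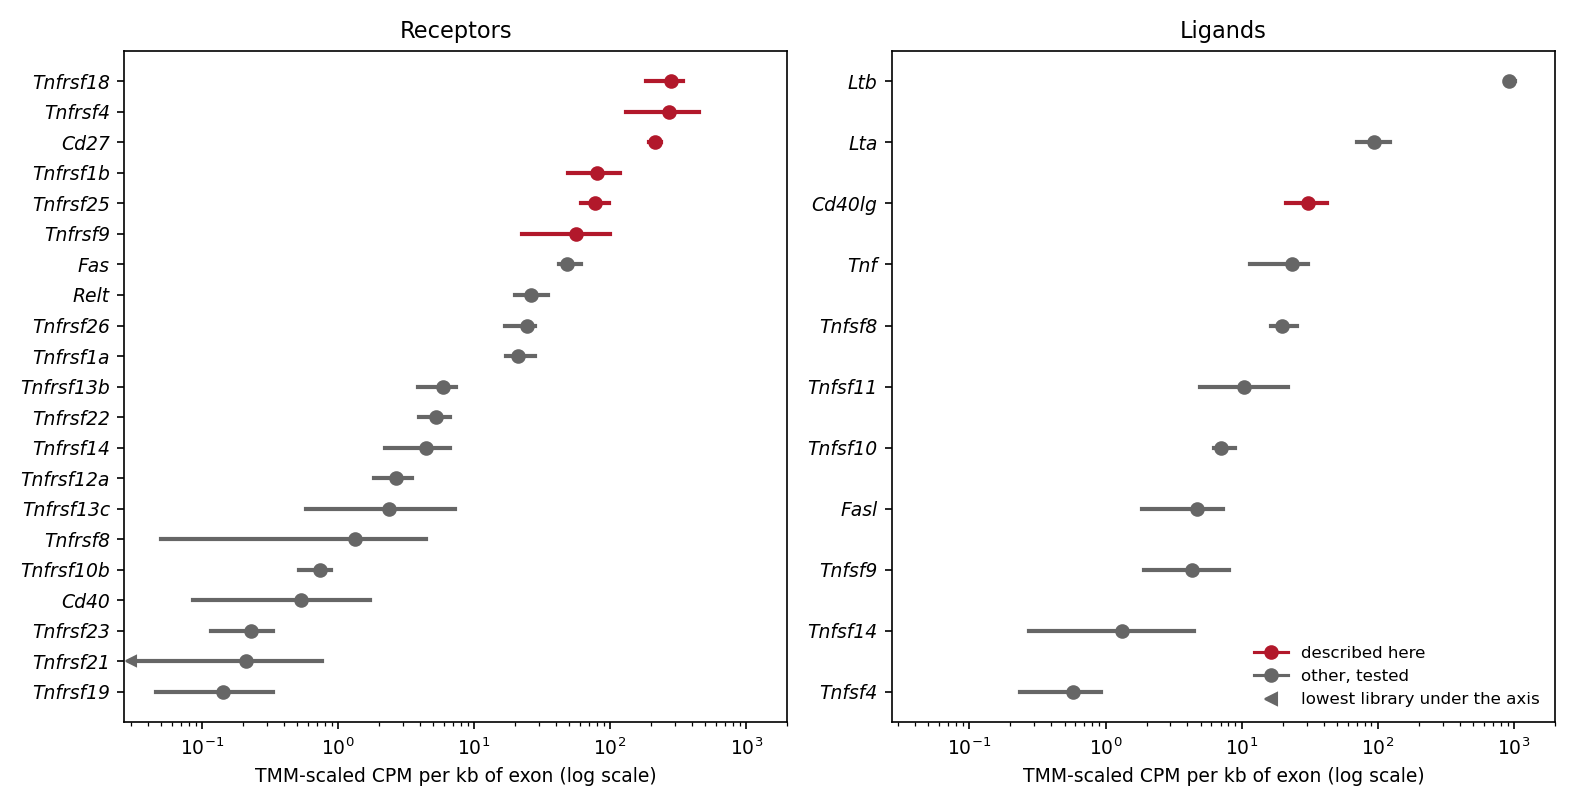
Level per kilobase of exon (TMM-scaled CPM per kb, log axis) of tested TNF superfamily receptors (left) and ligands (right); points are means over 12 libraries and lines run from the lowest to the highest library, red for the 7 genes described here. The 6 red receptors head the left panel, and Cd40lg, at a mean of 30.6, stands below Ltb and Lta.

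The ligands of these receptors were scarce in the same libraries. Tnfsf4, the ligand of OX40, averaged 1.07 CPM, and Tnfsf9, the ligand of Tnfrsf9, averaged 5.60 CPM. Tnfsf18, the ligand of GITR, was at 0 counts in 10 of 12 libraries, and Cd70, the ligand of CD27, in 9 of 12. Tnfsf15, the ligand of DR3, was at 0 in 4 of 12. A count of 0 allows up to 3 reads, which is 0.459 CPM in the shallowest library, and this floor covers counting error only. TNFR2 differs in this respect, since its ligands Tnf and Lta averaged 38.2 and 129 CPM. Cd40, the receptor of CD40 ligand, averaged 1.82 CPM. In replicates 1, 2 and 3 it was at 5.83, 1.22 and 0.516 CPM in TG High and 5.58, 1.67 and 0.424 CPM in TG Low. It was at 1.88, 0.295 and 0.741 CPM in WT High and 2.62, 0.709 and 0.342 CPM in WT Low. Replicate 1 was highest in each group. TG exceeded WT in both gates in replicates 1 and 2, and in replicate 3 in CD25 Low only.

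Between the CD25 gates, the data show Tnfrsf4, Tnfrsf18 and Tnfrsf9 at higher levels in CD25 High cells in every same-numbered pair of both genotypes, and Cd40lg at a lower level in every such pair. Of all tested genes, 15.5% were higher in all 3 pairs in TG and 17.3% in WT, and 16.4% were lower in all 3 in TG and 17.2% in WT. The differences were moderate: in the fit with the replicate block, averaged over genotypes, Tnfrsf4 was 1.55-fold, Tnfrsf9 1.397-fold and Tnfrsf18 1.26-fold higher, and Cd40lg was lower, at 0.666 of the CD25 Low level. Cd27 differed least between the gates, at a 1.01-fold ratio.

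These calls depend on the pairing. In edgeR's quasi-likelihood test without the block, 0 of 7 genes passed an adjusted p of 0.05 in TG (0.0085% of all tested genes did), 0 of 7 in WT (0.051%) and 0 of 7 in the mean of both genotypes (0.518%). An unadjusted p under 0.05 was reached by 1 of 7 in TG (4.91% of all), 2 of 7 in WT (3.32%) and 3 of 7 in the mean (8.68%). DESeq2 without the block called 0 of 7 in TG (0.445% of the genes it tested), 0 of 7 in WT (0.435%) and 1 of 7 in the mean (2.14%). With the block, 2 of 7 passed in TG (1.68% of all), 1 higher (0.986%) and 1 lower (0.697%). In WT 4 of 7 passed (1.63%), 3 higher (0.994%) and 1 lower (0.637%). In the mean 4 of 7 passed (5.88%), 3 higher (3.26%) and 1 lower (2.63%). DESeq2 with the block called 3 of 7 in TG (2.78%), 4 of 7 in WT (2.25%) and 4 of 7 in the mean (6.62%). Whole groups were apart, with no overlap between High and Low, for 1 of 7 genes in TG (8.07% of all tested genes) and 2 of 7 in WT (8.86%). The mean of both genotypes pools the same 12 libraries and adds none. As these are bulk samples, fewer cells expressing a gene and less of its RNA per cell cannot be told apart.

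**Figure D2:**
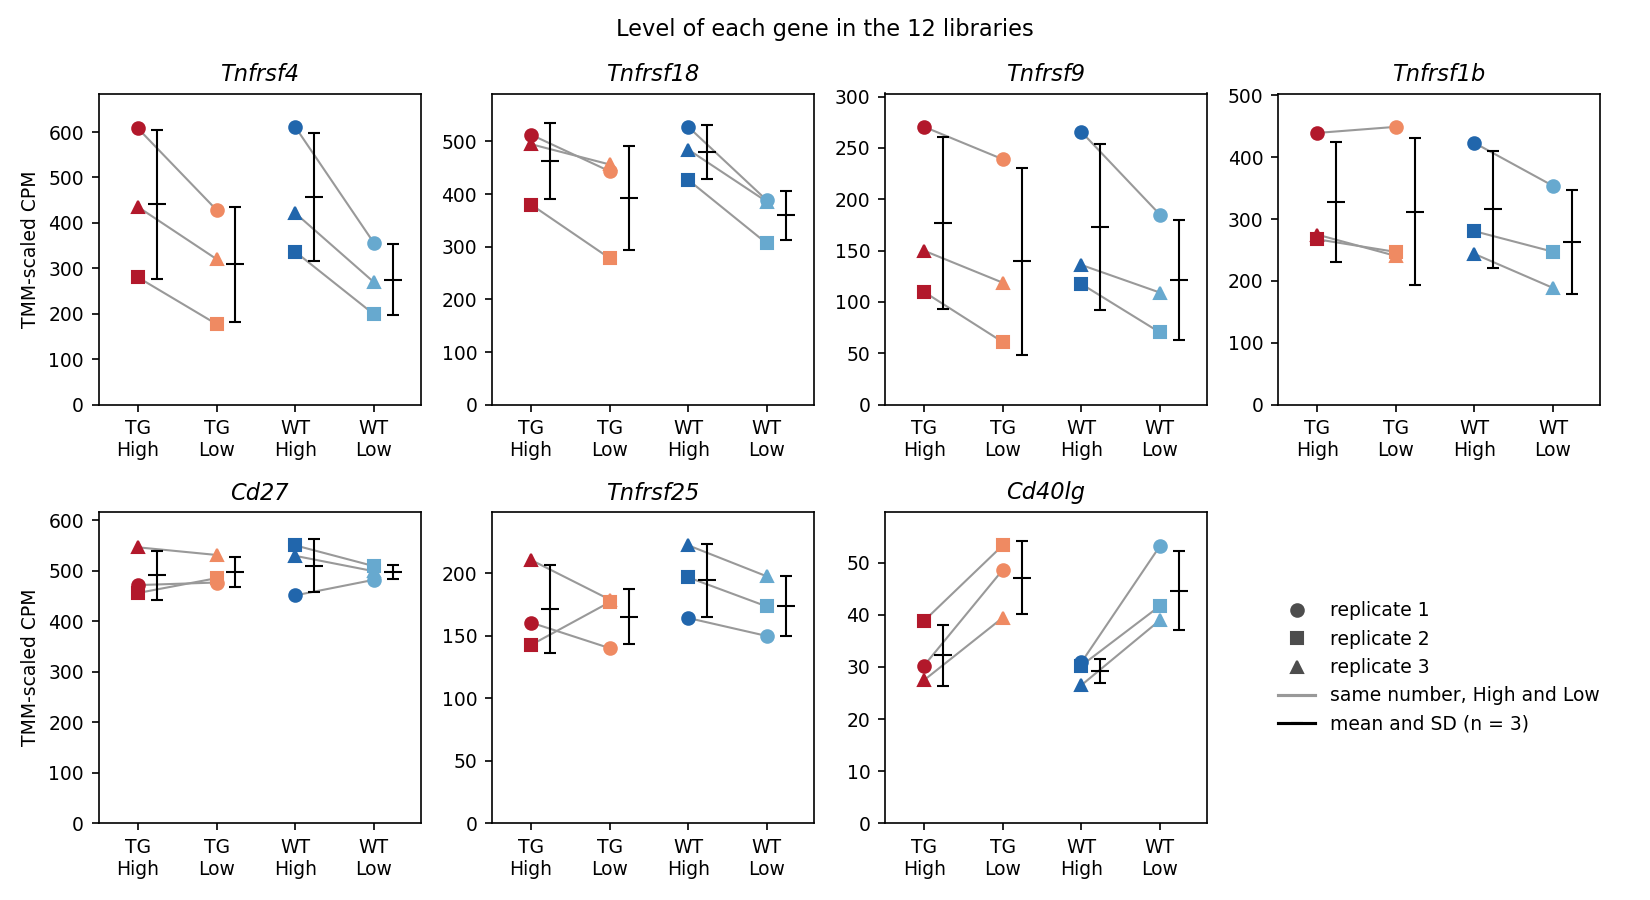
TMM-scaled CPM (vertical axes, from 0) of the 7 genes in the 12 libraries by group; marker shapes give the replicate number, grey lines join the CD25 High and CD25 Low libraries of the same number, and black bars show the group mean and SD (n = 3). Lines for Tnfrsf4, Tnfrsf18 and Tnfrsf9 all run down from High to Low, and lines for Cd40lg all run up.

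Tnfrsf4 encodes OX40, a receptor that prolongs T cell survival after activation (ENSMUSG00000029075, chromosome 4, 156013843 to 156016612, plus strand). Its level was 608, 280.1 and 435 CPM in TG High replicates 1, 2 and 3, against 428, 177 and 320.3 CPM in TG Low. It was 611, 337 and 422 CPM in WT High, against 356, 199 and 269.8 CPM in WT Low. The groups overlapped in both genotypes, because replicate 1 stood highest and replicate 2 lowest in each of the 4 groups, while every High library exceeded the Low library of its own number. The pair differences ran from 0.44 to 0.66 in TG and from 0.64 to 0.78 in WT on the log2 scale. With the block the change was 0.53 in TG (SE 0.09, edgeR adjusted p = 0.00562) and 0.73 in WT (SE 0.09, adjusted p = 0.000474). Without it the estimates were nearly the same, 0.52 and 0.73, but their SEs were each 0.39 and neither was called. Both calls of the blocked fit held when each library was left out in turn (highest adjusted p = 0.0405 in TG and 0.00904 in WT). Without all 4 libraries numbered 1, the TG change was 0.54 with an adjusted p of 0.120.

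Tnfrsf18 encodes GITR, a receptor long used as a Treg surface marker (ENSMUSG00000041954, chromosome 4, 156026164 to 156028895, plus strand). An antisense gene, Gm16008, shares 414 exon bases with it and is not used here. The library chemistry does not record strand, so reads of the shared bases cannot be assigned. GITR RNA stood at 513, 380.1 and 495 CPM in TG High replicates 1 to 3 and at 443, 278 and 456 CPM in TG Low. In WT High it stood at 528, 427 and 485 CPM and in WT Low at 388, 306 and 386 CPM. The WT groups did not overlap (4.49% of all tested genes were higher in this way), whereas the TG groups did, through the low value of TG High replicate 2. With the block the change was 0.42 in WT (SE 0.09, edgeR adjusted p = 0.0176) and 0.25 in TG, which was not called (SE 0.09, adjusted p = 0.200). The WT call was lost on leaving out replicate 1 (adjusted p = 0.0864) or 2 (0.141) of WT High, or replicate 1 (0.161) or 3 (0.0883) of WT Low. The mean of both genotypes, at 0.34 (SE 0.06, adjusted p = 0.00317), stayed called on leaving out any single library, and had an adjusted p of 0.0838 without the 4 libraries numbered 1.

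Tnfrsf9 encodes a receptor induced on T cells after antigen contact (ENSMUSG00000028965, chromosome 4, 150914562 to 150946102, plus strand). It varied most among the 7 genes, 4.44-fold from the lowest to the highest library. Its level was 271, 109.8 and 149.9 CPM in TG High replicates 1, 2 and 3 and 239, 61.0 and 119 CPM in TG Low. It was 266, 118 and 136 CPM in WT High and 185, 70.3 and 109 CPM in WT Low. In each group replicate 1 was far above the other two, and the gates overlapped in both genotypes although each pair was higher in CD25 High. With the block the change was 0.53 in WT (SE 0.12, edgeR adjusted p = 0.0446) and 0.43 in TG, not called (SE 0.12, adjusted p = 0.117). DESeq2 with the block called the TG change as well (adjusted p = 0.0359). The WT call was lost without any 1 of TG High replicates 1, 2 and 3, TG Low replicate 3, WT High replicates 1 and 2 and WT Low replicates 1, 2 and 3, with adjusted p between 0.0622 and 0.296. In the mean of both genotypes the change was 0.48 (SE 0.09, adjusted p = 0.00406) and stayed called on leaving out any single library.

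**Figure D3:**
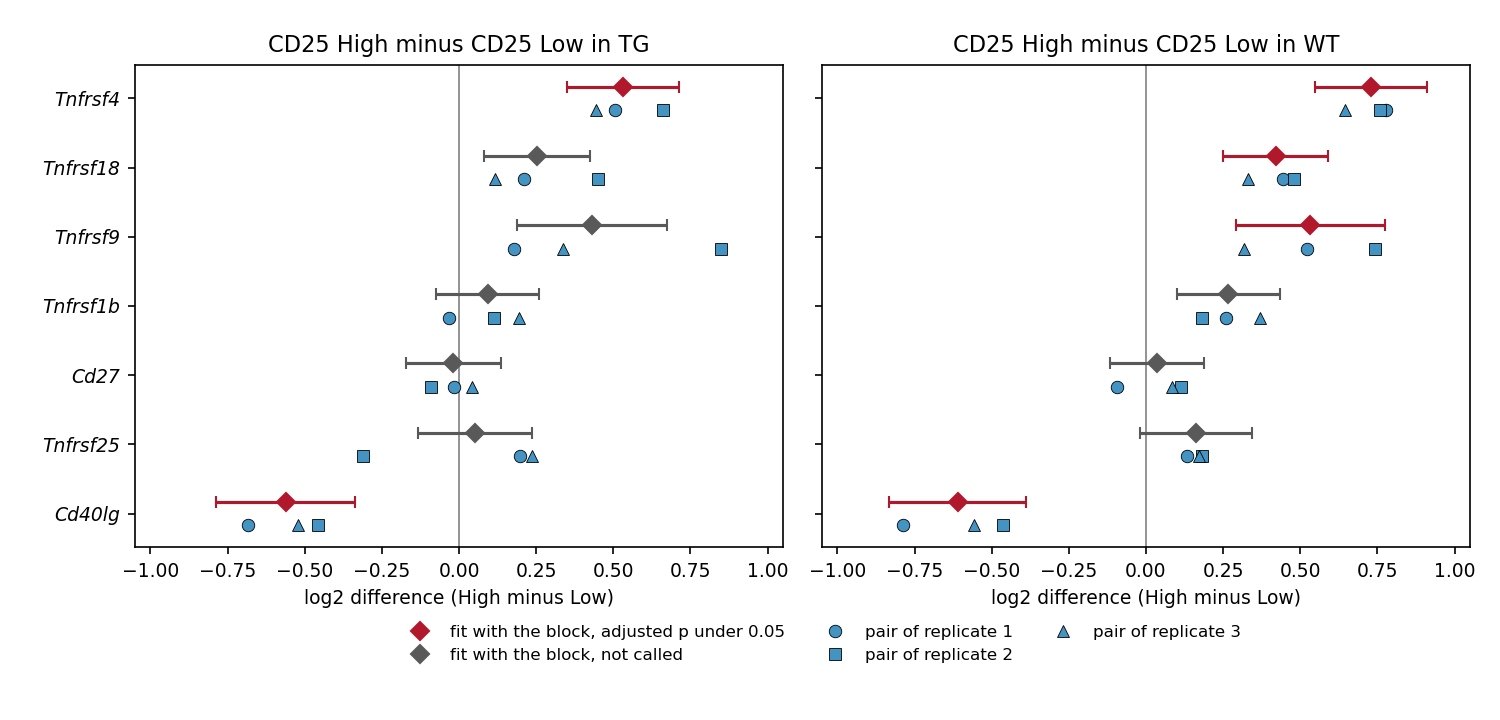
Log2 difference between CD25 High and CD25 Low (horizontal axis) in TG (left) and WT (right); diamonds with bars are the blocked edgeR estimate and its 95% interval, red where the adjusted p is under 0.05, and blue markers are the 3 same-numbered pairs. Tnfrsf4, Tnfrsf18 and Tnfrsf9 lie right of 0 and Cd40lg left of 0 in all 6 pairs.

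Tnfrsf1b encodes TNFR2, the TNF receptor found mainly on immune cells (ENSMUSG00000028599, chromosome 4, 145213463 to 145246870, minus strand). Its level was 439, 267 and 275 CPM in TG High replicates 1 to 3 and 449, 247 and 240.4 CPM in TG Low. It was 423, 280.4 and 244 CPM in WT High and 354, 247 and 189 CPM in WT Low. High exceeded Low in 3 of 3 WT pairs and in 2 of 3 TG pairs, and the gates overlapped in both genotypes. The blocked change was 0.27 in WT (SE 0.09, edgeR adjusted p = 0.194) and 0.09 in TG (SE 0.09, adjusted p = 0.732), and neither was called. A fit restricted to the 6 WT libraries, with the block, gave the same size, 0.27, and called it (adjusted p = 0.0284), in a fit that called 3.47% of all tested genes. In the mean of both genotypes leaving out 1 library at a time gave a call without WT Low replicate 2 alone (0.23, adjusted p = 0.0479, against 0.18 and 0.103 with all libraries).

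Cd27 and Tnfrsf25 showed no call between the gates. Cd27 encodes a receptor of naive and memory T cells that supports their survival (ENSMUSG00000030336, chromosome 6, 125232622 to 125237010, minus strand). It shares 129 exon bases with the microRNA gene Mir8113, which is not used here. Its level was 472, 456 and 547 CPM in TG High replicates 1, 2 and 3 and 477, 486 and 531 CPM in TG Low. It was 451, 551 and 529.8 CPM in WT High and 482, 509 and 499 CPM in WT Low. It was the steadiest of the 7, with a highest to lowest ratio of 1.22 over the 12 libraries. The 95% interval of its blocked change was -0.17 to 0.13 in TG and -0.12 to 0.19 in WT on the log2 scale.

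Tnfrsf25 encodes DR3, a receptor with a death domain whose ligand expands Tregs in mice (ENSMUSG00000024793, chromosome 4, 152115934 to 152120119, plus strand). Its level was 161, 143 and 211 CPM in TG High replicates 1 to 3 and 140.1, 177 and 179 CPM in TG Low. It was 164, 197 and 222 CPM in WT High and 149.8, 173 and 198 CPM in WT Low. The WT pairs were all higher in CD25 High, by 0.13 to 0.18 on the log2 scale, while TG replicate 2 was lower by 0.31. Here replicate 1 was lowest in 3 of the 4 groups, the reverse of Tnfrsf4 and Tnfrsf9. The blocked change was 0.05 in TG (SE 0.09, edgeR adjusted p = 0.897) and 0.16 in WT (SE 0.09, adjusted p = 0.694). TG High replicate 2, the shallowest library, decided the mean of both genotypes: 0.11 with it (adjusted p = 0.436) and 0.17 without it (adjusted p = 0.0442).

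Cd40lg, the ligand in the set, ran the other way (ENSMUSG00000031132, X chromosome, 57212143 to 57224042, plus strand). It had the lowest counts of the 7, from 254 to 1057 reads a library. Its level was 30.3, 38.9 and 27.5 CPM in TG High replicates 1, 2 and 3 and 48.7, 53.4 and 39.5 CPM in TG Low. It was 30.9, 30.3 and 26.5 CPM in WT High and 53.2, 41.7 and 39.0 CPM in WT Low. High and Low did not overlap in either genotype (3.84% of tested genes were lower in this way in TG and 4.37% in WT). Replicate 3 was lowest in each of the 4 groups. With the block the change was -0.56 in TG (SE 0.12, edgeR adjusted p = 0.0186) and -0.61 in WT (SE 0.11, adjusted p = 0.00815). The TG call was lost without TG High replicate 1 (adjusted p = 0.175), TG High replicate 3 (0.0601), TG Low replicate 1 (0.0822) or TG Low replicate 2 (0.0815). The WT call was lost without replicate 1 (adjusted p = 0.0592) or 2 (0.0575) of WT High, or replicate 1 of WT Low (0.110).

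In the mean of both genotypes the Cd40lg change was -0.59 with the block (SE 0.08, adjusted p = 0.000259) and was called on leaving out any single library. It was the gene nearest to a call without the block, at -0.59 (SE 0.12, edgeR adjusted p = 0.0535). That value passed with upper quartile scaling (adjusted p = 0.0474), with no filter on low counts (0.0437), with DESeq2 (0.000626), and without TG High replicate 2 (0.0417) or TG Low replicate 3 (0.0385). The ratio of Tnfrsf4 to Cd40lg was higher in CD25 High in all 6 same-numbered pairs. This had to be so, since Tnfrsf4 was higher and Cd40lg lower in each of them, and it adds no evidence. On the log2 scale of CPM it was 4.33, 2.85 and 3.99 in TG High replicates 1 to 3, against 3.14, 1.73 and 3.02 in TG Low, and 4.31, 3.48 and 3.99 in WT High, against 2.74, 2.25 and 2.79 in WT Low. Within WT the groups did not overlap, and within TG replicate 2 of High fell below replicates 1 and 3 of Low. This ratio was chosen after the values were seen.

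No call by genotype was made for the 7 genes in any fit. In CD25 High cells, TG against WT, edgeR called 0 of 7 (0% of all tested genes, with and without the block), and 0 of 7 had an unadjusted p under 0.05 with the block (3.55% of all) or without it (0.841%). In CD25 Low cells it called 0 of 7 (0% of all), 1 of them with an unadjusted p under 0.05 when blocked (3.25% of all) and 0 when not (0.408%). In the mean of both gates it called 0 of 7 as well (0% of all tested genes without the block and 0.051% with it). An unadjusted p under 0.05 was reached there by 1 of 7 when blocked (6.64% of all) and 0 of 7 when not (1.39%). DESeq2 called 0 of the 7 in each of the 3 comparisons. Without the block it called 0% of all genes it tested, and with it 0.0623% in CD25 High, 0.0125% in CD25 Low and 0.316% in the mean. TG and WT overlapped for all 7 genes, so 0 of 7 were apart in CD25 High (4.27% of all tested genes) and 0 of 7 in CD25 Low (3.3%).

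**Figure D4:**
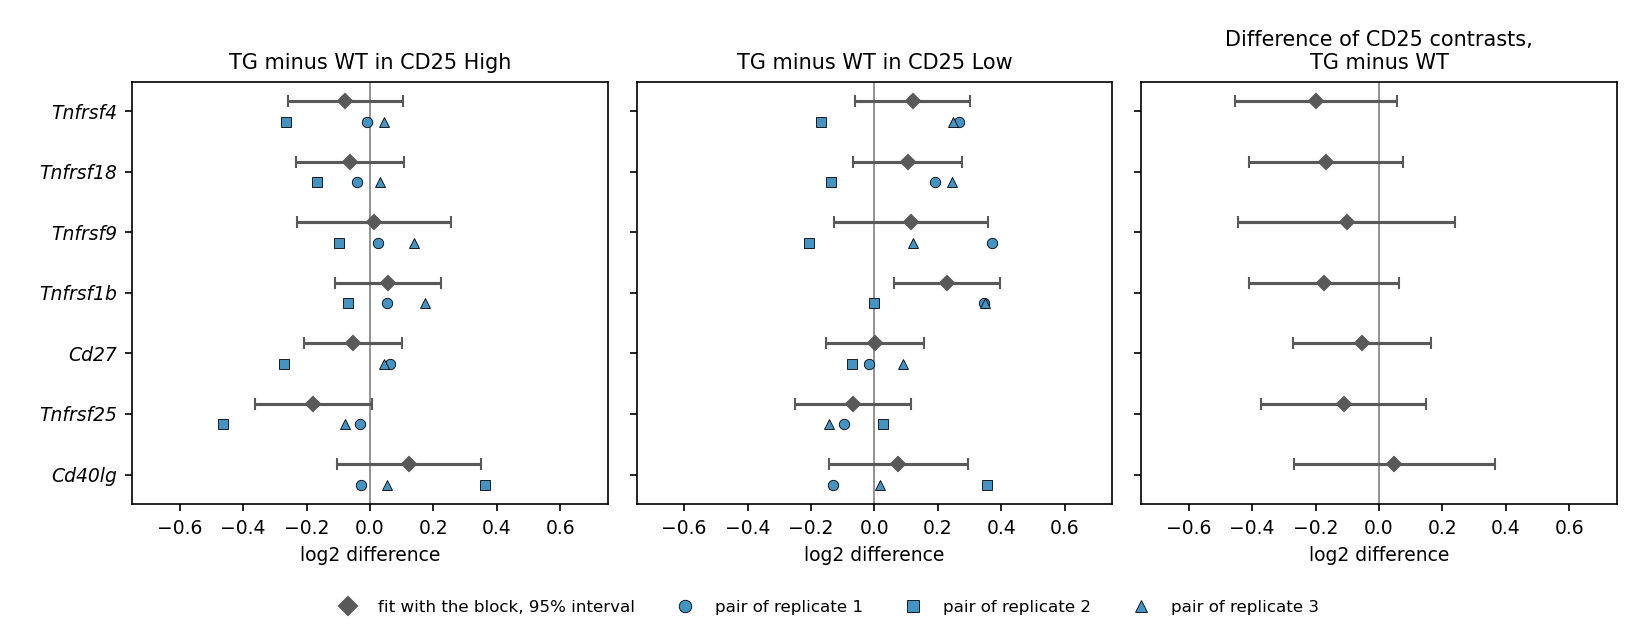
Log2 difference (horizontal axes) between TG and WT in CD25 High (left) and CD25 Low (middle), and the difference of the CD25 contrasts between the genotypes (right); diamonds with bars are blocked edgeR estimates with 95% intervals and blue markers the 3 same-numbered pairs. The interval of Tnfrsf1b in CD25 Low, 0.06 to 0.40, lies right of 0, and the other 20 intervals include 0.

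The largest genotype estimate was for Tnfrsf1b in CD25 Low cells, at 449, 247 and 240.4 CPM in TG Low against 354, 247 and 189 CPM in WT Low (replicates 1, 2 and 3). Replicates 1 and 3 were higher in TG and replicate 2 was level, and the groups overlapped. The blocked change was 0.23 (SE 0.09, edgeR adjusted p = 1.00). It was the 1 gene of the 7 with an unadjusted p under 0.05. Tnfrsf25 in CD25 High cells was lower in TG in 3 of 3 pairs, by 0.03, 0.46 and 0.08 on the log2 scale in replicates 1, 2 and 3. The large difference was that of TG High replicate 2, the shallowest library. Of all tested genes, 10.8% were lower in all 3 pairs of that comparison, and the blocked change was -0.18 (SE 0.09, edgeR adjusted p = 0.999). Over the alternative fits with the block it ran from -0.26 to -0.04. For the genes called between the gates, the 95% interval of the TG against WT change in CD25 High lay between -0.26 and 0.10 for Tnfrsf4, between -0.23 and 0.11 for Tnfrsf18, between -0.23 and 0.26 for Tnfrsf9 and between -0.11 and 0.35 for Cd40lg. Of 10 B cell markers, 10 had estimates above 0 in the blocked TG against WT mean of both gates (median 0.71), as had 6092 of all 11766 tested genes. Of the 10 markers, 1 was called higher, against 0.051% of all tested genes. The part of B cells in these values was not tested.

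The CD25 contrast itself was compared between the genotypes as an interaction. It was called for 0 of 7 genes by edgeR without or with the block (0% of all tested genes) and for 0 of 7 by DESeq2 (0% without the block and 0.0125% with it). An unadjusted edgeR p under 0.05 was reached by 0 of 7, against 0.229% of all genes without the block and 1% with it. The blocked difference, TG minus WT, was -0.20 for Tnfrsf4 (SE 0.13, 95% interval -0.45 to 0.06), -0.17 for Tnfrsf18 (SE 0.12) and -0.10 for Tnfrsf9 (SE 0.17). For Cd40lg it was 0.05 (SE 0.16, 95% interval -0.27 to 0.36). So Tnfrsf18 and Tnfrsf9, called in WT and not in TG, were not shown to differ between the genotypes.

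Libraries numbered 1 stood apart for 4 of the 7 genes. Mean levels in the 4 libraries numbered 1, 2 and 3 were 501, 248 and 362 CPM for Tnfrsf4. They were 240.1, 89.6 and 128 CPM for Tnfrsf9 and 416, 260.4 and 237 CPM for Tnfrsf1b. Replicate 1 was higher than the other replicates for Tnfrsf9 (log2 1.15, SE 0.18, edgeR adjusted p = 0.00148), Tnfrsf1b (log2 0.74, SE 0.07, adjusted p = 2.02e-05) and Tnfrsf4 (log2 0.71, SE 0.16, adjusted p = 0.0140), and lower for Tnfrsf25 (log2 -0.29, SE 0.09, adjusted p = 0.0481). Tnfrsf18, Cd27 and Cd40lg were not called. Of all tested genes, 12.5% were higher and 6.18% lower in replicate 1, so a change with the number is common in this series. What the number marks is not given.

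Markers of other cells and of division moved with the same number. The summed level of 10 B cell markers was 360.4 and 348 CPM in TG High and TG Low and 201 and 255 CPM in WT High and WT Low in replicate 1, and 34.2 to 96.3 CPM in the other 8 libraries. The 10 cell cycle genes summed to 224 to 447 CPM in replicate 1 and to 21.9 to 62.4 CPM elsewhere. The part of these cells in the levels of Tnfrsf4, Tnfrsf9 and Tnfrsf1b was not tested. Without the 4 libraries numbered 1 the blocked mean CD25 contrast kept Tnfrsf4, Tnfrsf9 and Cd40lg as called.

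**Figure D5:**
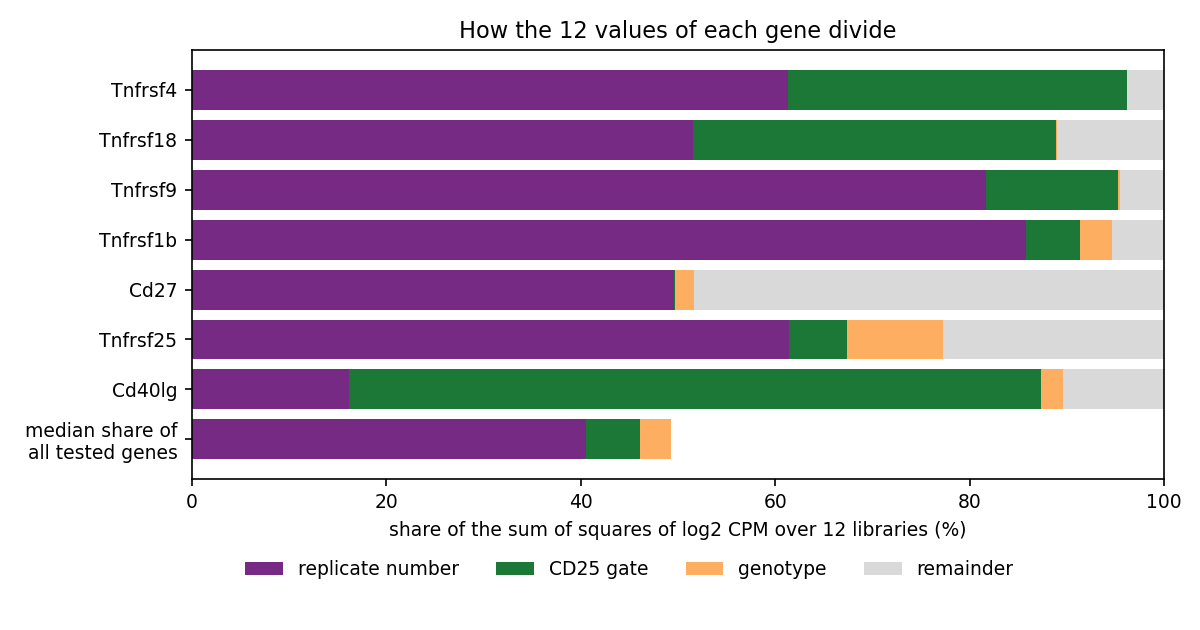
Share (%) of the sum of squares of log2 CPM over the 12 libraries that goes with replicate number, CD25 gate and genotype for each gene, with the median of each share over all tested genes in the last row. Replicate number holds 85.8% for Tnfrsf1b, gate holds 71.1% for Cd40lg, and genotype holds 9.97% at most, for Tnfrsf25.

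Divided by source, the gate held 71.1% of the spread of Cd40lg on the log2 scale, 37.4% for Tnfrsf18, 34.9% for Tnfrsf4 and 13.6% for Tnfrsf9, against a median of 5.64% over all tested genes. It held 5.94% for Tnfrsf25, 5.51% for Tnfrsf1b and 0.107% for Cd27. Replicate number, which has more levels than the gate, held 85.8% for Tnfrsf1b and 81.7% for Tnfrsf9, 16.2% for Cd40lg and a median of 40.5% over all. Genotype held between 0.0332% (Tnfrsf4) and 9.97% (Tnfrsf25), with a median over all tested genes of 3.12%. These shares describe the 12 libraries and carry no test.

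Other genes of the pathway were counted from lists. In the blocked mean CD25 contrast, 5.88% of all tested genes were called, 3.26% higher and 2.63% lower. There 2 of 15 tested other receptors were called (22 are in the list): Fas was higher (log2 0.28, SE 0.06, edgeR adjusted p = 0.00703) and Tnfrsf1a, the death-domain TNF receptor, was lower (log2 -0.24, SE 0.06, adjusted p = 0.0374). The Fas call held without any single library, while that of Tnfrsf1a was lost without any 1 of 10 libraries, that is all but TG High replicate 3 and TG Low replicate 3 (adjusted p up to 0.128). Tnfrsf1a averaged 48.1 CPM in TG High and 59.1 CPM in TG Low, and 51.4 CPM in WT High and 59.4 CPM in WT Low. The median change of the 15 tested other receptors was -0.13, against 0.00 over all tested genes and 0.18 over the 7 genes described here. Of 10 tested ligands, 3 were called (5.88% of all tested genes): Lta higher (log2 0.39, adjusted p = 0.00313), and Fasl (log2 -1.28, adjusted p = 5.64e-05) and Tnfsf14 (log2 -1.02, adjusted p = 0.0178) lower. The Tnfsf14 call was lost without TG High replicate 1 (adjusted p = 0.0984) or TG Low replicate 1 (0.112). Fasl, the ligand of Fas, was also called without the block (log2 -1.26, adjusted p = 0.0103), at 5.13 CPM in TG High and 12.6 CPM in TG Low, and 5.62 CPM in WT High and 13.02 CPM in WT Low.

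Downstream, 4 of 24 adaptors and proximal signalling genes were higher (3.26% of all tested genes) and 0 lower (2.63%) in the blocked mean contrast, with a median of 0.04. These were Traf6 (1.25-fold), an adaptor, Birc2 (1.18-fold), a ubiquitin ligase that TRAF proteins recruit, Tank (1.17-fold), a TRAF-binding protein, and Tnfaip3 (1.17-fold), the NF-kB inhibitor also called A20. None of the 24 was called without the block (0.518% of all tested genes were). The Traf6 call held without any single library. That of Birc2 was lost without TG Low replicate 1, WT High replicates 1 and 2 or WT Low replicate 1 (adjusted p = 0.0512 to 0.0718), and that of Tank without WT Low replicate 2 (0.0581). That of Tnfaip3 was lost without any 1 of 9 libraries, that is all but TG High replicate 2, TG Low replicate 2 and WT Low replicate 2 (adjusted p up to 0.133). Traf1, itself a target of NF-kB, averaged 269.9 CPM and was not called. Of 14 NF-kB subunits, inhibitors and targets, 5 were higher (3.26% of all tested genes) and 0 lower (2.63%) with the block, with a median of 0.14. They were Map3k8 (1.63-fold), a kinase bound by an NF-kB precursor, Cd83 (1.63-fold), an activation marker, Rel (1.43-fold), the subunit that supports Foxp3 expression, Bcl2l1 (1.21-fold), a survival gene, and Nfkbia. Rel was also called without the block (log2 0.51, SE 0.09, edgeR adjusted p = 0.0258), as were Foxp3 (log2 0.47, adjusted p = 0.0115), Il2ra (log2 1.00, adjusted p = 0.00251) and Il2rb (log2 0.85, adjusted p = 0.000146). Il2ra encodes CD25, on which the gates were sorted, so its call goes with the sort and is no separate finding. Without the block the Rel call was lost without any 1 of 8 libraries, that is all but TG High replicate 2, TG Low replicates 2 and 3 and WT High replicate 2 (adjusted p up to 0.09998), and with the block it held without any single library.

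Some markers of other cells and of division also differed between the gates. In the blocked mean contrast, 5 of 11 tested CD8 T and NK cell markers were lower in CD25 High (2.63% of all tested genes) and 0 higher (3.26%). Among the 5 were Klrk1, Ncr1, Klrb1c and Klrd1. Over the whole list, 5 estimates were above 0 and 6 below. The levels of the NK genes were low. Ncr1 was at 0.636, 0 and 0 CPM in TG High replicates 1 to 3 and at 4.61, 0.404 and 0 CPM in TG Low, and at 1.13, 0.0843 and 0 CPM in WT High and 8.42, 2.35 and 0 CPM in WT Low. Replicate 1 was highest in each group, and 5 of 12 libraries were at 0. The calls of Klrk1 and Ncr1 held without any single library. That of Klrb1c was lost without TG High replicate 1 (adjusted p = 0.0830) or TG Low replicate 1 (0.0884), and that of Klrd1 without TG High replicate 1 (0.126), TG Low replicate 1 (0.130) or WT High replicate 1 (0.0519). Of 8 tested myeloid markers 2 (Csf1r and C1qa) were lower, as was 1 of 10 B cell markers (Cd22), against 2.63% of all tested genes. The Cd22 call was lost without WT High replicate 1 (adjusted p = 0.0745), WT High replicate 2 (0.0625) or WT Low replicate 1 (0.0913). The C1qa call was lost without any library numbered 1, its log2 change then lying between -4.04 and -1.11. That of Csf1r was lost without any 1 of 8 libraries, that is all but replicates 2 and 3 of TG Low and of WT High, and its change was -0.93 without TG Low replicate 1 and -1.93 without WT High replicate 1, against -4.24 with all. The 12 CD8 and NK markers summed to 70.7 to 121 CPM in TG High, 67.2 to 149 in TG Low, 69.9 to 114 in WT High and 57.9 to 123 in WT Low, and 0 to 4 of the 12 were at 0 in a library. The 14 myeloid markers summed to 87.2 to 170.5 CPM in TG High, 89.0 to 301 in TG Low, 90.1 to 123 in WT High and 85.4 to 197 in WT Low, and 0 to 7 of them were at 0. The part of such cells in the lower Cd40lg level of CD25 High was not tested.

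Of 10 cell cycle genes, 9 had blocked estimates above 0 in the mean CD25 contrast (median 0.27), as had 5961 of all 11766 tested genes. The 1 called, against 5.88% of all tested genes, was Top2a, a DNA topoisomerase of dividing cells (log2 0.63, edgeR adjusted p = 0.00184). Without the block 10 of 10 were above 0 (median 0.44) and 0 were called (0.518% of all tested genes). In replicates 1, 2 and 3 their sum was 447, 53.0 and 25.1 CPM in TG High and 277, 62.4 and 22.8 CPM in TG Low. It was 334, 49.3 and 26.3 CPM in WT High and 224, 52.1 and 21.9 CPM in WT Low. In both genotypes the sum was higher in CD25 High in replicates 1 and 3 and lower in replicate 2. The largest differences were those of replicate 1. The part of dividing cells in the higher Tnfrsf4, Tnfrsf18 and Tnfrsf9 levels of CD25 High was not tested.

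The genes most like each member were ranked by Pearson correlation of log2(CPM + 1) over the 12 libraries after the mean of each replicate number was subtracted, among 8317 genes averaging 10 CPM or more, predicted genes left out. For Tnfrsf4 they were Foxp3 (r = 0.984), Mgst2 (0.983) and Dgat2 (0.977), for Tnfrsf18 Mgst2 (0.982), Tnfrsf4 (0.977) and Smyd2 (0.962), and for Tnfrsf9 Cuedc2 (0.971), Mgst2 (0.963) and Tnfrsf18 (0.959). Tnfrsf1b ranked with Ccr8 (0.908), Capg (0.895) and Trp53i11 (0.889). Cd27 ranked with Flad1 (0.919), Slc25a28 (0.916) and Ypel3 (0.912), and Tnfrsf25 with Tet2 (0.957), Tmem201 (0.951) and Ncln (0.950). For Cd40lg they were Ehd3 (0.975), Card19 (0.974) and Dapl1 (0.973). Each is among the highest values of 8317 genes, so high values go with the ranking. Before the number means were subtracted, r of these pairs ran from 0.348 (Tnfrsf1b with Trp53i11) to 0.966 (Tnfrsf1b with Ccr8).

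Among the 7 genes, Tnfrsf4 and Cd40lg were the most opposed, with r = -0.945 after the number means were subtracted and -0.583 before. Tnfrsf4 and Tnfrsf18 had r = 0.977 after and 0.942 before. Tnfrsf4 with Foxp3 stood at 0.984 after and 0.509 before, and Cd27 with Tnfrsf25 stood at 0.547 after and 0.788 before. These values share the 12 libraries, their depth and the 2 gates, and are given as a description with no test.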

How the data were processed

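RNA was sequenced from 12 libraries in 4 groups of 3. The authors deposited whole-number read counts per gene, made from cDNA amplified from 10 ng of total RNA and Nextera libraries per the labels' protocols, a chemistry that does not mark strand. CASAVA 1.8.2, STAR 2.4, featureCounts 1.4.6 and GRCm38 are named per the submitters' processing notes. Of 21839 gene identifiers, 21628 matched a symbol in GENCODE vM21.

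From these counts, TMM scaling, a filter on low counts (filterByExpr, minimum 10) and quasi-likelihood tests were computed with edgeR 4.0.16 in R 4.3.3, with p-values adjusted by Benjamini-Hochberg over 11766 genes, which hold 99.96% of all counts, and called under 0.05. A single model held all 4 groups. A further fit added the replicate number as a block. The labels do not say what the number marks, and the numbers were taken to pair the samples because same-numbered libraries of every pair of groups correlated above 0.1, and 12 of 12 libraries matched best with one of their own number. Alternatives were other scalings, no filter, DESeq2 1.42.0, only the groups compared, and each library left out. Totals ran from 6767828 to 23942479 counts, and the 7 genes had at least 254 counts in each library.

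The 7 genes and all lists were chosen with earlier results of these data known. Of the genes in a list, at most 4 with the smallest p were named, with Nfkbia, Traf1 and the genes named for their levels named after their values were seen. Levels per kilobase use merged exon length. Intervals are 95% normal intervals.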

Additional observations from a re-analysis of the deposited data

How the results depend on the processing

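Calls of the 7 genes turned mainly on the replicate block. The share of all tested genes called in the same fit stands in brackets. With the replicate block, edgeR called 2 in TG (1.68%), 4 in WT (1.63%) and 4 in the mean of both genotypes (5.88%), against 0 in each without it. DESeq2 with the block called 3 (2.78%), 4 (2.25%) and 4 (6.62%), and edgeR on the compared groups with the block called 2 in TG (1.73%) and 5 in WT (3.47%). In the mean of both genotypes without the block, upper quartile scaling (0.68%), no filter (0.38%) and DESeq2 (2.14%) each called 1, Cd40lg. The block without the 4 libraries numbered 1 called 0 in TG (0.337%), 1 in WT (Tnfrsf4, 0.424%) and 3 in the mean (1.53%). Leaving out each library in turn without the block gave 0 to 1 calls in the mean (0.124% to 0.621%) and 0 elsewhere. With the block it gave 1 to 2 in TG (0.621% to 1.95%), 1 to 4 in WT (0.728% to 2.04%) and 4 to 5 in the mean (3.47% to 6.42%). Genotype comparisons and the difference of CD25 contrasts gave 0 calls among the 7 in every setting run. No called value changed sign over 34 settings. The cause of these changes was not tested.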
